A study of Homo sapiens with 6 samples.

Results

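The genes described here are the factors of NF-kB, their inhibitors and a set of inflammatory target genes without IL6. They were chosen by symbol, from a fixed list of 36 genes, and each of the 36 symbols was found once among the 60664 genes of the deposited table. The cells were SKOV3, an established human ovarian carcinoma line. In 3 libraries the gene JUP, which encodes the junction protein plakoglobin, was knocked down with a short hairpin RNA (shJUP 1, 2 and 3), and 3 libraries came from cells with the control hairpin shNC (shNC 1, 2 and 3), labelled as wild type. The labels call them independent biological replicates, and do not say which hairpin sequence was used, whether a line was a clone or a pool, or what a shared number stands for. The study's title places JUP upstream of PDGFB and JAK-STAT signalling, and the comparison of the hairpins asks which transcripts differ between knockdown and control cells.

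NF-kB is a family of dimeric transcription factors built from RELA, RELB, REL and the products of NFKB1 and NFKB2. In resting cells the IkB proteins hold the dimers in the cytoplasm, and signals from receptors of TNF, interleukin-1 or microbial products lead to their degradation and to entry of the dimers into the nucleus. A slower, non-canonical branch runs through NFKB2 and RELB and is restrained by TRAF2, TRAF3 and the ligases encoded by BIRC2 and BIRC3. Targets include chemokines, cytokines, survival genes and the pathway's own inhibitors, and carcinoma cells, ovarian carcinoma among them, often express many of the chemokines.

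A reason to view these genes together is their promoters. RefSeq promoter windows of 300 bases (250 before to 50 after the annotated start, GRCh38.p14) were matched for 32 of the 36 genes. The sequence GGAATTTCC was searched on both strands, together with the 10-base kappaB consensus, which it can overlap. GGAATTTCC lay in 12 of the 32 windows, against 0.461% of 35116 windows of that length, and the kappaB consensus lay in 15, against 11.3%. One or the other was found in 17 of the 32, against 11.5% of all windows. A match is a description of the letters and not evidence of binding. Most of the list was drawn up as NF-kB targets, so the share is not independent of that choice.

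Windows of 4 members are shown, those with the highest mean level among a short list of known targets whose window holds a match. The matches are in capitals. In CXCL8 (chr4:73740319-73740618, plus strand) and CXCL1 (chr4:73869143-73869442, plus strand) the match starts 91 and 79 bases before the start. The windows of TNFAIP3 (chr6:137867009-137867308, plus strand) and BIRC3 (chr11:102317234-102317533, plus strand) hold 2 matches each to the kappaB consensus and none to GGAATTTCC.
CXCL8: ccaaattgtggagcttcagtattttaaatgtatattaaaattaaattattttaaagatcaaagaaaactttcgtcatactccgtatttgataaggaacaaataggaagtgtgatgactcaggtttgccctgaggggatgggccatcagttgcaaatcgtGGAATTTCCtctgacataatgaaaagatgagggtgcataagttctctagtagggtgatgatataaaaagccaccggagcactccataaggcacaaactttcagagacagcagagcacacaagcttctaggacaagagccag
CXCL1: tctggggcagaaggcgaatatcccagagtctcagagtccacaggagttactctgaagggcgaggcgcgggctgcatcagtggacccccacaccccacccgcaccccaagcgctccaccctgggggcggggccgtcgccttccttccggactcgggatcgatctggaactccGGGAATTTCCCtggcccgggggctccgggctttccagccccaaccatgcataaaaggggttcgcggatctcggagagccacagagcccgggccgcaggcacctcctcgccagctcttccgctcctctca
TNFAIP3: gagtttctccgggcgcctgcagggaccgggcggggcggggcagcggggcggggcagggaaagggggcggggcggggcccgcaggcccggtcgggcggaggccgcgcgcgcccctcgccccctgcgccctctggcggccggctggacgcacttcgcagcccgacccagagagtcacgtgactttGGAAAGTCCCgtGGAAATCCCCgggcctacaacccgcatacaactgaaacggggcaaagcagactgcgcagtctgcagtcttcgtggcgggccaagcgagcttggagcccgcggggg
BIRC3: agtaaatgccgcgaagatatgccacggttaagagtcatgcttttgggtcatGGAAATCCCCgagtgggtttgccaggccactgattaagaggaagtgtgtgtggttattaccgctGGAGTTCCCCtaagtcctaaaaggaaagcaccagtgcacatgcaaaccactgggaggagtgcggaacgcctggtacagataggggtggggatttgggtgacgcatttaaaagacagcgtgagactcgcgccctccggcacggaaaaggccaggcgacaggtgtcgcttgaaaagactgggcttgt

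The windows of CXCL1, CXCL2 and CXCL3 resemble each other. CXCL1 and CXCL3 were identical at 254 of 300 bases in a global alignment, CXCL1 and CXCL2 at 231 and CXCL2 and CXCL3 at 235, whereas CXCL1 and CXCL8 shared 144. The 30 bases around the match, with GGAATTTCC in capitals, are shown for the 3 genes (chr4:73869305-73869334, plus strand, chr4:74099253-74099282, minus strand, and chr4:74038748-74038777, minus strand). These short stretches were picked after the values had been seen.
CXCL1: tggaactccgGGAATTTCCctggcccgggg
CXCL2: tggagctccgGGAATTTCCctggcccggga
CXCL3: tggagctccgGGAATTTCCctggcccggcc

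Library totals ranged from 17456121 to 19279514 estimated counts. Levels are in CPM, counts scaled to a common library size after TMM normalization. They are listed for libraries 1, 2 and 3 in that order, and n = 3 in each group. The targeted gene JUP stood at 39.9, 93.6 and 24.6 CPM under shJUP and 104, 133 and 101 CPM under shNC, so every shJUP library lay below every control, but shJUP 2 only slightly (log2 -1.10, SE 0.44, edgeR adjusted p = 0.47; 0.043 as the DESeq2 adjusted p with a block for the library number). SKOV3 and ovarian carcinoma markers were present, with ERBB2 at 2320 to 6910 CPM, KRT8 at 494 to 839 CPM and PAX8 at 253 to 393 CPM. MUC16 stayed under 1 CPM. Among 11 markers of leukocytes just CD68 and ITGAX came to 1 CPM or more anywhere. PTPRC had at most 1 count, and CD3E, FCGR3A and MPO had 0 in all libraries. In bulk RNA a smaller share of cells expressing a gene and less RNA per cell cannot be told apart.

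Of the 36 genes, 32 passed the filter on low counts and were tested together with all 15867 genes. The edgeR quasi-likelihood test of shJUP against shNC called 0 of the 32, and 0% of all genes. At an unadjusted p under 0.05 edgeR held 6 of the 32 as higher and 0 as lower, against 5.17% and 4.87% of all genes. DESeq2 called 2 higher, TRAF1 and BIRC2, and 0 lower, against 1.29% of all genes in either direction, 0.693% higher and 0.592% lower. The limma-voom fit called 0 of the 32, as of all genes (0%). With the library number as a block DESeq2 called 6 higher (TRAF1, BIRC2, CXCL1, CXCL2, CXCL3 and CXCL8) and 3 lower (BCL3, PTGS2 and TNFAIP2), against 1.95% and 2.44%. The edgeR fit with that block called 0 of the members and 0.0063% of all genes, with 14 members at an unadjusted p under 0.05 against 19.2%. The groups did not overlap for 5 members, all higher in shJUP (15.6% of the 32, against 8.39% of all genes), and for 0 lower (against 8.65%).

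Among pairs of libraries with the same number, the median difference of the group was largest for number 2. The median log2 difference over the tested members was 0.19, beside -0.01 over all genes, with 23 above 0 and 9 below. Between libraries of the same number the median was 0.01 for number 1, 0.35 for number 2 and 0.08 for number 3, with 16, 25 and 18 of the 32 above 0. Leaving out only 1 number-2 library keeps the other one in the other group, so differences by library number enter the result. Without shJUP 2 the median was -0.02, and without both number-2 libraries 0.05. In that last set DESeq2 called 5 members higher (RELB, TRAF1, BIRC2, CXCL2 and CXCL3) and 5 lower (BCL3, CCL20, IL1B, CSF1 and TNFAIP2), against 4.26% of all genes, 1.99% higher and 2.27% lower, and edgeR called 0 members against 0.308%. By pair, 11 members were higher in shJUP within every number (34.4%, against 21.3% of all genes) and 5 were lower within every number (15.6%, against 22.5%).

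**Figure D1:**
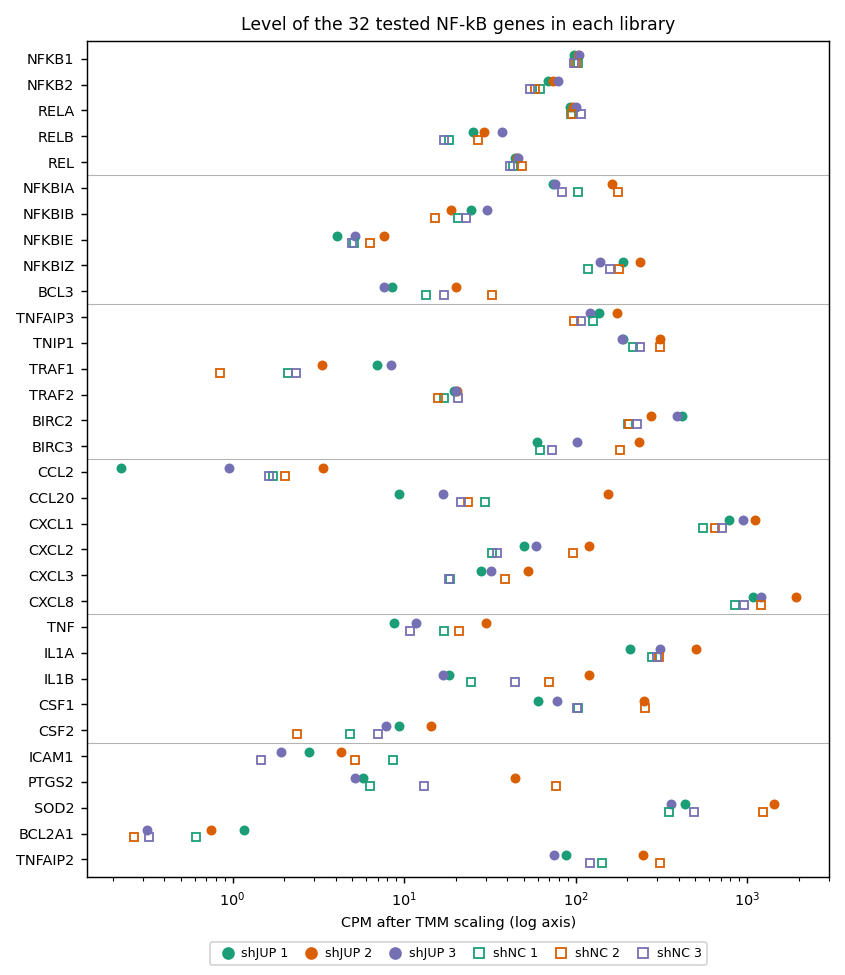
Level of each tested gene in each library, in CPM on a log axis, with filled circles for shJUP, open squares for shNC and a colour for each library number. Genes are ordered by role, from the subunits at the top to other targets at the bottom. The 6 points of NFKB1, RELA and REL lie close together, whereas SOD2, PTGS2, CSF1 and TNFAIP2 have both number-2 libraries to the right of the other 4.

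Of the NF-kB subunits, NFKB1, RELA and REL were at even levels over the 6 libraries. NFKB2 and RELB, of the non-canonical branch, had higher means in shJUP without passing the test, and RELB varied from 17.1 to 37 CPM. NFKB1 (ENSG00000109320), the precursor of p50, stood at 97.4, 103 and 105 CPM under shJUP and 104, 101 and 97.9 CPM under shNC (log2 0.01, SE 0.09, edgeR adjusted p = 0.98). RELA, the main transactivating subunit, stood at 93.1, 96.6 and 100 CPM under shJUP and 94.3, 95.9 and 108 CPM under shNC (log2 -0.04, SE 0.10, edgeR adjusted p = 0.91). REL stood at 44.6, 45.5 and 45.9 CPM under shJUP and 43.2, 48.6 and 41.7 CPM under shNC (log2 0.03, SE 0.11, edgeR adjusted p = 0.94). The libraries of both hairpins overlapped for these genes, and the whole range over the 6 libraries was narrow. NFKB2 (ENSG00000077150), the precursor of p52, stood at 69.2, 73.8 and 79.4 CPM under shJUP and 62.3, 58.3 and 54.5 CPM under shNC. Each shJUP library lay above each control, at 74.1 ± 5.1 against 58.4 ± 3.9 CPM (mean ± SD; log2 0.34, SE 0.11, edgeR adjusted p = 0.42, unadjusted 0.013). RELB (ENSG00000104856), the usual partner of p52, stood at 25.3, 29.3 and 37 CPM under shJUP and 18.4, 26.9 and 17.1 CPM under shNC (log2 0.55, SE 0.22, edgeR adjusted p = 0.47). Its control 2 lay above shJUP 1, so the groups overlapped. Without both number-2 libraries the RELB difference was 0.82 with a DESeq2 adjusted p of 0.022 and an edgeR adjusted p of 0.13. Per kilobase of exon, RELA was the most abundant subunit transcript (17.9 CPM per kb over all libraries), NFKB1 followed at 16.2 and NFKB2 at 14.8, and REL was the least abundant at 3.41. Without the division by exon length RELB was the lowest, at a mean of 25.7 CPM against 44.9 CPM for REL.

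None of the 5 inhibitors and nuclear IkB proteins was called by edgeR for the hairpin. Both number-2 libraries were the highest for 3 of them, NFKBIA, BCL3 and NFKBIE, and the lowest for NFKBIB. NFKBIA (ENSG00000100906), which encodes IkB-alpha and is itself a rapid NF-kB target, stood at 73.4, 164 and 75.5 CPM under shJUP and 103, 177 and 83.2 CPM under shNC (log2 -0.22, SE 0.39, edgeR adjusted p = 0.87). Its log2 difference was 0.16 without shNC 2, and -0.32 in DESeq2 without both number-2 libraries. BCL3, a nuclear IkB protein that works with p50 and p52 dimers, stood at 8.54, 20.1 and 7.65 CPM under shJUP and 13.4, 32.7 and 17 CPM under shNC. It was lower in shJUP within every number, with ratios of 0.636, 0.614 and 0.45 for numbers 1, 2 and 3, at 12.1 ± 6.9 against 21 ± 10 CPM (log2 -0.80, SE 0.46, edgeR adjusted p = 0.6; -0.33 without shNC 2 and -1.38 without shJUP 2; DESeq2 adjusted p 0.0065 with the block and 0.5 without). NFKBIZ, which encodes the nuclear IkB protein IkB-zeta, stood at 189, 238 and 139 CPM under shJUP and 118, 179 and 158 CPM under shNC (log2 0.31, SE 0.23, edgeR adjusted p = 0.66), with shJUP 2 the highest and shNC 1 the lowest. NFKBIB, which encodes IkB-beta, ran the other way by number. It stood at 24.5, 18.7 and 30.5 CPM under shJUP and 20.7, 15.1 and 23.1 CPM under shNC (log2 0.32, SE 0.23, edgeR adjusted p = 0.64), so both number-2 libraries were the lowest, and each shJUP library lay above the control of its number. NFKBIE, which encodes IkB-epsilon, was low, at 4.07, 7.63 and 5.15 CPM under shJUP and 5.08, 6.32 and 4.95 CPM under shNC (log2 0.04, SE 0.28, edgeR adjusted p = 0.97; -0.24 without shJUP 2). Its groups overlapped, and the number-2 libraries were the highest.

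The clearest hairpin differences among the members were in TRAF1 and BIRC2, which encode partners in signalling from the TNF receptors. BIRC2 (ENSG00000110330) encodes cIAP1, a ubiquitin ligase that acts with TRAF2. It stood at 420, 275 and 391 CPM under shJUP and 203, 204 and 229 CPM under shNC, with means of 362 ± 77 against 212 ± 15 CPM. All 3 shJUP libraries lay above all controls, shJUP 2 by the least (log2 0.77, SE 0.17, edgeR adjusted p = 0.37; DESeq2 adjusted p 0.0057, and 3.8e-05 with the block). TRAF1 (ENSG00000056558), an adaptor that binds TRAF2 and the cIAP proteins and is a well-known NF-kB target, stood at 6.92, 3.31 and 8.44 CPM under shJUP and 2.1, 0.85 and 2.34 CPM under shNC. The groups did not overlap, and the ratio within a number was stable at 3.29, 3.89 and 3.61, although both number-2 libraries were the lowest of their hairpin. The means were 6.22 ± 2.6 against 1.76 ± 0.8 CPM (log2 1.82, SE 0.48, edgeR adjusted p = 0.4; DESeq2 adjusted p 0.029, and 0.00022 with the block). TRAF1 rested on few reads, with 124, 62 and 159 counts under shJUP and 38, 16 and 43 counts under shNC. With any 1 library left out the log2 difference stayed between 1.48 and 2.12 for TRAF1 and between 0.65 and 0.93 for BIRC2, without a call by edgeR.

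The other 4 genes of this role were not called for the hairpin by edgeR or by DESeq2, with or without the block. TNFAIP3, which encodes the deubiquitinase A20, a feedback brake, stood at 137, 174 and 121 CPM under shJUP and 127, 98 and 107 CPM under shNC (log2 0.39, SE 0.17, edgeR adjusted p = 0.5). The groups overlapped because shJUP 3 lay below shNC 1, and shJUP 2 was the highest. BIRC3, the paralog of BIRC2 that encodes cIAP2, stood at 59.6, 234 and 102 CPM under shJUP and 61.8, 181 and 72.9 CPM under shNC (log2 0.33, SE 0.57, edgeR adjusted p = 0.87). Unlike BIRC2, its level followed the library number. The log2 difference of BIRC3 was -0.38 without shJUP 2, which leaves shNC 2 among the controls. Without both number-2 libraries it was 0.27 in DESeq2. TNIP1, which binds A20, stood at 190, 310 and 187 CPM under shJUP and 215, 310 and 237 CPM under shNC (log2 -0.14, SE 0.23, edgeR adjusted p = 0.86; 0.02 without shNC 2). The number-2 libraries were equal and the highest. TRAF2, the adaptor of the complex, stood at 19.6, 20.3 and 20 CPM under shJUP and 17, 15.8 and 20.6 CPM under shNC (log2 0.16, SE 0.14, edgeR adjusted p = 0.71) and was among the most even members.

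Of the chemokines, CXCL1 and CXCL8 were the most abundant of all members per kilobase of exon, at 611 and 530 CPM per kb, and IL1A came next at 150. The rank of IL1A depends on the exon length used. SOD2 had a higher mean (718 against 318 CPM), but 43.5 CPM per kb over 16493 bases of annotated exon. CXCL1 (ENSG00000163739), a neutrophil attractant that acts on the receptor CXCR2, stood at 786, 1110 and 947 CPM under shJUP and 551, 652 and 712 CPM under shNC. Each shJUP library lay above each control, at 946 ± 160 against 638 ± 81 CPM (log2 0.57, SE 0.16, edgeR adjusted p = 0.4, unadjusted 0.0083; DESeq2 adjusted p 0.068, and 0.00014 with the block). CXCL8 (ENSG00000169429), which encodes interleukin-8, stood at 1090, 1920 and 1200 CPM under shJUP and 854, 1210 and 956 CPM under shNC. The groups overlapped through shNC 2, which lay above shJUP 1 and 3, and each shJUP library exceeded the control of its number (log2 0.47, SE 0.24, edgeR adjusted p = 0.56; 0.18 without shJUP 2; DESeq2 adjusted p 0.44, and 0.0052 with the block).

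CXCL2 and CXCL3, the close paralogs of CXCL1, combined both patterns. CXCL2 stood at 50.2, 119 and 58.9 CPM under shJUP and 32.7, 96.6 and 34.7 CPM under shNC (log2 0.48, SE 0.49, edgeR adjusted p = 0.76). Its ratios within numbers 1, 2 and 3 were 1.54, 1.23 and 1.7, all above 1, although the number-2 libraries of both hairpins lay above the rest. With the block its DESeq2 adjusted p was 0.0095, against 0.74 without, and with shJUP 2 left out its log2 difference was 0. Without both number-2 libraries that difference was 0.7 in DESeq2. CXCL3 stood at 28, 52.6 and 32.3 CPM under shJUP and 18.6, 38.8 and 18.3 CPM under shNC (log2 0.58, SE 0.36, edgeR adjusted p = 0.62; 0.26 without shJUP 2 and 1.03 without shNC 2; DESeq2 adjusted p 0.011 with the block and 0.56 without), with ratios of 1.5, 1.36 and 1.77. These 3 genes share stretches of sequence: of the distinct 50-base stretches in their GENCODE 29 transcripts, 4.81% of those in CXCL1, 12.5% in CXCL2 and 6.01% in CXCL3 also occur in another of the 3. Their split by the authors' counting may therefore be uncertain, which was not tested. Summed as 1 row they differed by 0.56 (SE 0.17, edgeR adjusted p = 0.42). That sum is mostly CXCL1, with a mean of 792 CPM over all libraries, against 65.4 CPM for CXCL2 and 31.4 CPM for CXCL3. It therefore says little about CXCL2 or CXCL3.

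In CCL20 a single library stood apart. CCL20 (ENSG00000115009), the ligand of CCR6, stood at 9.32, 154 and 16.8 CPM under shJUP and 29.5, 23.7 and 21.6 CPM under shNC. The library shJUP 2 was far above the other 5, while shJUP 1 and 3 lay below every control (log2 1.26, SE 0.93, edgeR adjusted p = 0.66). Without shJUP 2 the log2 difference was -0.93, and without both number-2 libraries it was -0.96 (DESeq2 adjusted p = 0.046, edgeR adjusted p = 0.18). CCL2, a monocyte attractant, was near the detection limit at 0.223, 3.36 and 0.956 CPM under shJUP and 1.71, 2.02 and 1.63 CPM under shNC (log2 -0.24, SE 0.77, edgeR adjusted p = 0.93; 0.27 without shJUP 1), from 4, 63 and 18 counts under shJUP and 31, 38 and 30 counts under shNC. Its controls were even and the shJUP libraries spread from below to above them.

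The other 3 chemokines were too low to be tested. CXCL5 had 5, 100 and 3 counts under shJUP and 4, 19 and 2 counts under shNC. CXCL6 had 1, 42 and 2 counts under shJUP and 7, 16 and 1 counts under shNC. In both genes shJUP 2 held the most reads and shNC 2 the second most. CXCL10, an interferon-induced attractant of T cells, had 7, 25 and 0 counts under shJUP and 3, 1 and 5 counts under shNC, where the 0 of shJUP 3 allows up to 3 counts or 0.159 CPM.

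**Figure D2:**
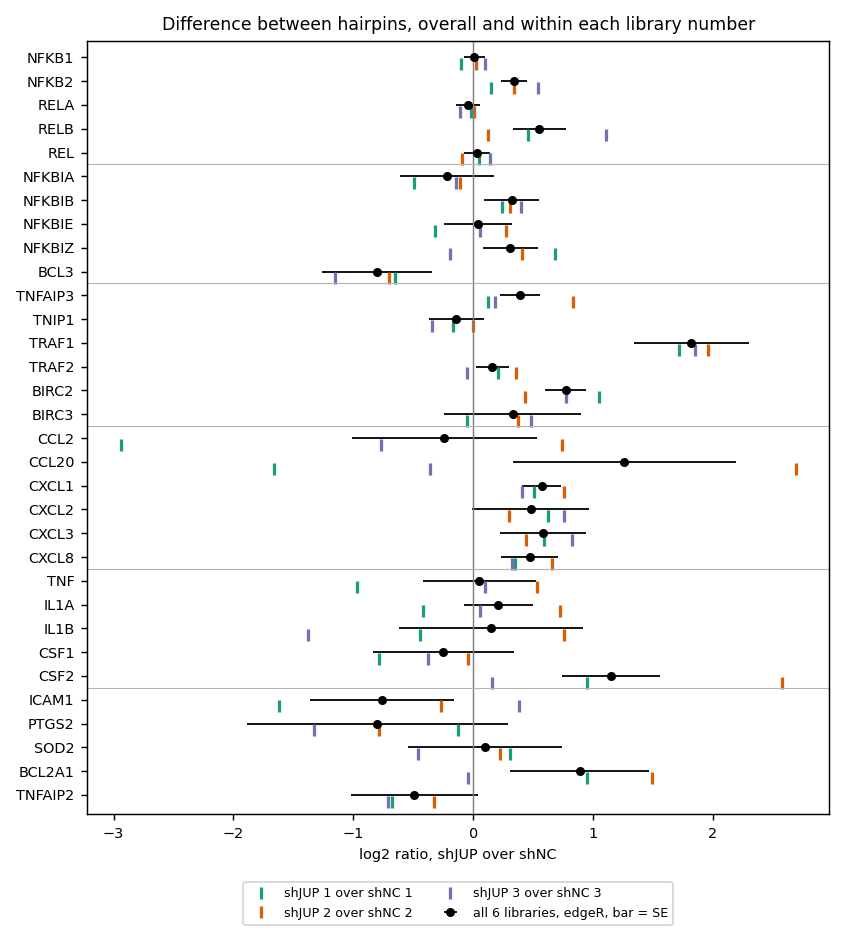
Log2 ratio of shJUP over shNC for each tested gene, with the edgeR estimate and its SE as a black point and bar and the ratio of libraries of the same number as coloured ticks. TRAF1, BIRC2, CXCL1 and NFKB2 have all 3 ticks on the right of 0, BCL3 and TNFAIP2 have all 3 on the left, and the ticks of CCL20 run from -1.66 to 2.69.

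Of the 5 tested cytokines and growth factors edgeR called 0 for the hairpin, with 4 estimates above 0 and 1 below. IL1A (ENSG00000115008), which encodes interleukin-1 alpha, an activator of NF-kB, stood at 209, 505 and 311 CPM under shJUP and 279, 305 and 298 CPM under shNC (log2 0.21, SE 0.29, edgeR adjusted p = 0.82). Its controls were nearly equal, and shJUP 2 alone lay well above them (-0.18 without it). IL1B stood at 18.2, 119 and 16.9 CPM under shJUP and 24.7, 70.4 and 44.1 CPM under shNC (log2 0.15, SE 0.77, edgeR adjusted p = 0.96). The highest libraries were shJUP 2 and shNC 2, and shJUP 1 and 3 lay below each control. Without shJUP 2 the difference was -1.40, and without both number-2 libraries -0.96 (DESeq2 adjusted p = 0.025, edgeR adjusted p = 0.17). TNF, the founding ligand of the pathway, stood at 8.7, 30.2 and 11.7 CPM under shJUP and 17.1, 20.9 and 10.9 CPM under shNC (log2 0.05, SE 0.47, edgeR adjusted p = 0.98; -0.68 without shJUP 2). The number-2 libraries were the highest under each hairpin.

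The colony-stimulating factors had opposite signs. CSF1, the growth factor of macrophages, stood at 60.1, 249 and 78.4 CPM under shJUP and 104, 255 and 102 CPM under shNC (log2 -0.25, SE 0.59, edgeR adjusted p = 0.91; 0.33 without shNC 2). Both number-2 libraries stood alike and well above the other 4, and each shJUP library lay below the control of its number. Without both number-2 libraries the DESeq2 log2 difference of CSF1 was -0.56. CSF2 (ENSG00000164400), which encodes GM-CSF, stood at 9.32, 14.3 and 7.86 CPM under shJUP and 4.81, 2.39 and 7.02 CPM under shNC. Every shJUP library lay above every control, at 10.5 ± 3.4 against 4.74 ± 2.3 CPM (log2 1.15, SE 0.41, edgeR adjusted p = 0.45, unadjusted 0.025), but the ratios within a number were uneven at 1.94, 5.98 and 1.12. LTB, which encodes lymphotoxin beta, had 1 to 11 counts in a library and was not tested.

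Of the remaining targets, PTGS2, TNFAIP2 and ICAM1 had estimates below 0, and edgeR called none of the 5. TNFAIP2 stood at 88.3, 247 and 74.9 CPM under shJUP and 142, 310 and 122 CPM under shNC (log2 -0.49, SE 0.53, edgeR adjusted p = 0.77; 0.05 without shNC 2). It was lower in shJUP within every number, with ratios of 0.623, 0.796 and 0.612 (DESeq2 adjusted p 0.0012 with the block and 0.85 without). Without both number-2 libraries the DESeq2 log2 difference of TNFAIP2 was -0.69. PTGS2, which encodes the prostaglandin synthase COX-2, stood at 5.8, 44.2 and 5.2 CPM under shJUP and 6.36, 76.4 and 13.1 CPM under shNC (log2 -0.80, SE 1.09, edgeR adjusted p = 0.83; 0.92 without shNC 2). Its within-number ratios were 0.913, 0.579 and 0.397 (DESeq2 adjusted p 0.045 with the block and 0.89 without). Without both number-2 libraries the DESeq2 log2 difference of PTGS2 was -0.82. ICAM1, an adhesion molecule for leukocytes, was low and uneven at 2.79, 4.27 and 1.91 CPM under shJUP and 8.57, 5.15 and 1.47 CPM under shNC (log2 -0.76, SE 0.60, edgeR adjusted p = 0.68; -0.15 without shNC 1 and -1.19 without shNC 3). SOD2 (ENSG00000112096), the mitochondrial superoxide dismutase, was abundant at 433, 1440 and 359 CPM under shJUP and 349, 1240 and 493 CPM under shNC (log2 0.10, SE 0.64, edgeR adjusted p = 0.97; -0.81 without shJUP 2). Without both number-2 libraries the DESeq2 log2 difference of SOD2 was -0.08. Its hairpin groups overlapped throughout, and its locus overlaps a further annotated gene, so its reads may be shared. BCL2A1, an inhibitor of apoptosis, reached at most 1.17 CPM, from 21, 14 and 6 counts under shJUP and 11, 5 and 6 counts under shNC (log2 0.89, SE 0.58, edgeR adjusted p = 0.63).

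Several target genes differed by library number. A test of the number terms beside the hairpin (edgeR quasi-likelihood F test over all genes, 2 libraries for each number) called 6 of the 32 tested members, or 18.8%, against 0.63% of all genes. These were PTGS2 (adjusted p = 0.028), TNFAIP2 (0.031), BIRC3 (0.033), CXCL2 (0.034), CSF1 (0.044) and SOD2 (0.046), and in each both number-2 libraries were above the other 4. DESeq2 called 12 (37.5%, against 6.62%) and limma-voom 4 (12.5%, against 0.422%). When CXCL2 was summed with CXCL1 and CXCL3, the edgeR number test did not call that row (adjusted p = 0.17), which is mostly CXCL1. The test asks whether any number differs, and setting number 2 apart from 1 and 3 followed earlier results of these data. With this order in view, both number-2 libraries were the highest for 15 of the 32 (46.9%, against 18.5% of all genes) and the lowest for 1, NFKBIB (against 18%).

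The called genes had the step under both hairpins. The number test fits the same number terms to both hairpins, so it picks genes whose steps are alike. Their likeness is therefore not a separate result. PTGS2 in library 2 exceeded the mean of libraries 1 and 3, 8.04-fold under shJUP and 7.85-fold under shNC. SOD2 did so 3.64-fold under shJUP and 2.94-fold under shNC, and CSF1 3.59-fold under shJUP and 2.48-fold under shNC. TNFAIP2 exceeded it 3.03-fold under shJUP and 2.35-fold under shNC, BIRC3 2.91-fold under shJUP and 2.69-fold under shNC and CXCL2 2.19-fold under shJUP and 2.87-fold under shNC. NFKBIA had a like step, 2.21-fold under shJUP and 1.9-fold under shNC, and just missed the threshold (edgeR adjusted p = 0.052), as did BCL3 (0.06) and CXCL3 (0.062). For some members the step was seen mainly under shJUP. The level of library 2 relative to that mean was 11.8-fold under shJUP and 0.929-fold under shNC for CCL20. For IL1B it was 6.77-fold under shJUP and 2.05-fold under shNC, and for TNF 2.97-fold under shJUP and 1.5-fold under shNC. Whether the step differs between the hairpins was not tested, since each hairpin has a single library of each number. No subunit was called, with the number-test adjusted p between 0.55 for RELB and 1 for NFKB2.

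The count for the number rested on several libraries. It was 0 members without shJUP 2, shJUP 3 or shNC 2, 1 (PTGS2) without shNC 3, 5 without shNC 1 and 7 without shJUP 1. Over all genes it was 6 without shJUP 2, 6 without shJUP 3, 3 without shNC 2, 9 without shNC 3 and 217 without shJUP 1, against 100 with all libraries. Without shNC 1 the count over all genes lay within that range of 3 to 217. JUP itself was the highest in shJUP 2 among the knockdown libraries and in shNC 2 among the controls. The summed level of the SKOV3 and ovarian carcinoma markers was 6060 and 8290 CPM in shJUP 2 and shNC 2 and 3980 to 5910 CPM in the other 4. That sum was carried by ERBB2 (4420 and 6910 CPM there, 2320 to 4390 CPM elsewhere). KRT19 (158 and 220 CPM), EPCAM (4.21 and 4.62 CPM) and MSLN (under 1 CPM) were also the highest of their hairpin in both number-2 libraries. KRT8 (611 and 494 CPM) and WT1 (1.55 and 1.65 CPM) were the lowest of their hairpin in both. PAX8 was the highest of all libraries in shJUP 2 (393 CPM) and the lowest in shNC 2 (253 CPM). The summed leukocyte markers were 38.5 and 33.1 CPM there and 20 to 29.2 CPM elsewhere, mostly from CD68 (19.5 to 35.8 CPM), with CD3E, FCGR3A and MPO at 0. The fibroblast markers summed to 46.3 and 474 CPM in the number-2 libraries and 11.4 to 261 CPM elsewhere, mostly from COL1A1 (8.76 to 401 CPM). The fibroblast markers DCN (5.87 and 7.54 CPM there, 0.553 to 2.45 CPM elsewhere) and LUM (6.67 and 15.5 CPM there, 0.903 to 4.41 CPM elsewhere) had both number-2 libraries above the other 4. The rest of the 8 fibroblast markers did not. COL1A1 and COL3A1 were the highest in shNC 2 (401 and 46 CPM). In shJUP 2 they lay lower (32.3 and 0.16 CPM) than in shJUP 1 (253 and 5.58 CPM). The endothelial markers summed to 11.8 and 11.6 CPM there and 6.86 to 11.9 CPM elsewhere. The part of these markers in the result was not tested.

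**Figure D3:**
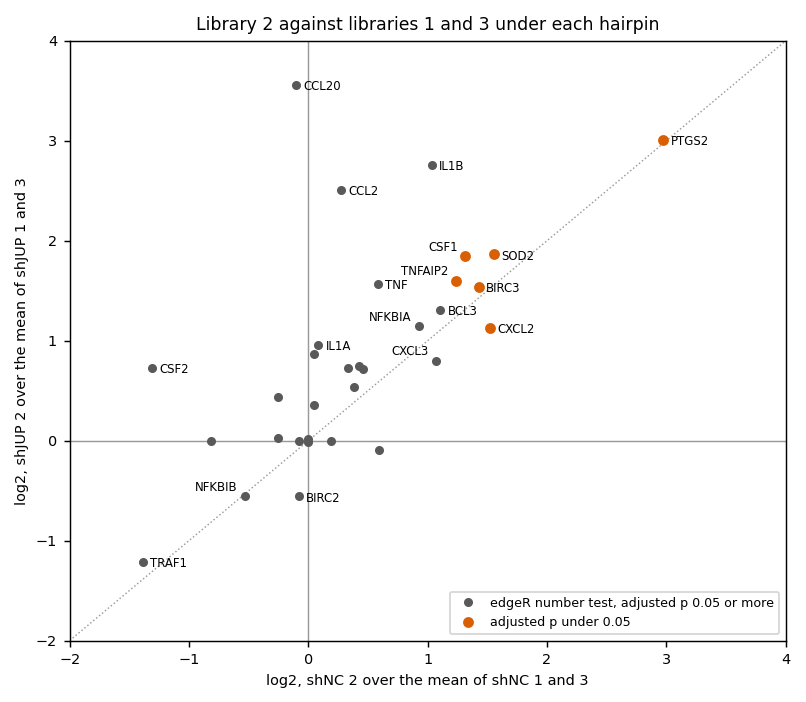
Log2 ratio of library 2 over the mean of libraries 1 and 3, under shNC on the horizontal and under shJUP on the vertical axis, for each tested gene, with the genes called by the edgeR number test in orange and a dotted line where both ratios are equal. PTGS2, SOD2, CSF1, TNFAIP2, BIRC3 and CXCL2 lie near the line in the upper right, CCL20 lies above it at a control ratio near 0, and TRAF1 lies at the lower left.

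The genes around these members in the pathway were read from lists drawn up by role. Receptors and ligands upstream of NF-kB had 19 of 24 tested, of which edgeR and DESeq2 called 0 in either direction for the hairpin and DESeq2 with the block called 0 higher and 2 lower, TNFSF10 (adjusted p 0.013), the ligand TRAIL, and IL33 (0.0032), an interleukin-1 family cytokine, against 1.95% higher and 2.44% lower of all genes. IL1RAP, the shared chain of interleukin-1 receptors, was at 63.5 ± 4.2 against 76.5 ± 9.3 CPM (log2 -0.27, SE 0.12, edgeR adjusted p = 0.53) and IL1R1, the signalling receptor of interleukin-1, at 57.8 ± 50 against 98.1 ± 17 CPM (log2 -0.76, SE 0.53, edgeR adjusted p = 0.64). IL1R1 stood at 26.7, 116 and 31 CPM under shJUP and 87.7, 118 and 88.6 CPM under shNC, so shJUP 1 and 3 lay far below the rest. Without both number-2 libraries its log2 difference was -1.60, which edgeR called (adjusted p = 0.041), against an adjusted p from 0.086 to 0.96 with 1 library left out. TNFSF15, a TNF family ligand, was at 1.04 ± 0.53 against 0.456 ± 0.36 CPM (log2 1.19, SE 0.73, edgeR adjusted p = 0.62) and IL18, a cytokine of the interleukin-1 family, at 49 ± 13 against 39.4 ± 6.8 CPM (log2 0.31, SE 0.22, edgeR adjusted p = 0.64). TNFSF15 rested on few reads, with 14, 31 and 13 counts under shJUP and 10, 1 and 14 counts under shNC. Its within-number ratios were 1.41, 31.1 and 0.906.

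Adaptors and kinases had 25 of 26 tested. The edgeR test and DESeq2 called 0 of them, and edgeR held 3 higher and 1 lower at an unadjusted p under 0.05, against 5.17% and 4.87% of all genes. DESeq2 with the block called 1 of the 25, IRAK1, higher, against 1.95% of all genes. IRAK1, a kinase of the interleukin-1 and Toll-like receptor pathways, stood at 153, 143 and 227 CPM under shJUP and 94.9, 81.2 and 127 CPM under shNC. Each shJUP library lay above each control (log2 0.79, SE 0.23, edgeR adjusted p = 0.41; DESeq2 adjusted p 0.064, and 6.3e-09 with the block). MAP3K14, which encodes NIK, the kinase of the non-canonical branch, was at 49 ± 15 against 32.5 ± 6.3 CPM (log2 0.59, SE 0.24, edgeR adjusted p = 0.48). MAP3K7, which encodes TAK1, was at 82.5 ± 4.6 against 68.3 ± 5.1 CPM (log2 0.27, SE 0.10, edgeR adjusted p = 0.46), and the adaptor TRAF5 at 25.9 ± 1.7 against 34.6 ± 3.2 CPM (log2 -0.42, SE 0.12, edgeR adjusted p = 0.41).

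The ubiquitin machinery of the pathway, with 17 of 18 tested, had 0 genes called by edgeR, by DESeq2 or by DESeq2 with the block, and its log2 differences lay between -0.23 and 0.49. PDLIM2, linked to turnover of nuclear RELA, was at 9.77 ± 1.9 against 6.95 ± 1.4 CPM (log2 0.49, SE 0.24, edgeR adjusted p = 0.54). OTULIN, a deubiquitinase of linear chains, was at 84.6 ± 4.4 against 75.7 ± 7.3 CPM (log2 0.16, SE 0.11, edgeR adjusted p = 0.64). UBE2N and UBE2V1, which together build lysine-63 chains, were at 141 ± 4 against 158 ± 11 CPM (log2 -0.16, SE 0.10, edgeR adjusted p = 0.63) and 199 ± 8.1 against 225 ± 19 CPM (log2 -0.17, SE 0.10, edgeR adjusted p = 0.61).

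Further NF-kB targets, with 26 of 34 tested, had 0 genes called for the hairpin by these 3 fits, with 10 above 0 and 16 below and a median of -0.01. TNC was at 269 ± 160 against 127 ± 92 CPM (log2 1.09, SE 0.60, edgeR adjusted p = 0.58; 0.46 without shJUP 1 and 1.82 without shNC 3, with within-number ratios of 4.48, 3.78 and 0.707), IL32 at 38.8 ± 14 against 27.6 ± 4.6 CPM (log2 0.49, SE 0.26, edgeR adjusted p = 0.57), IL15 at 21.6 ± 1 against 28.2 ± 7.5 CPM (log2 -0.38, SE 0.19, edgeR adjusted p = 0.56) and CCL5 at 3.15 ± 1.7 against 1.69 ± 0.74 CPM (log2 0.90, SE 0.50, edgeR adjusted p = 0.59). Within numbers 1, 2 and 3 the ratios were 0.816, 2.31 and 1.34 for IL32 and 1.18, 5.9 and 0.895 for CCL5, largest for number 2 in both. Those of IL15 were 0.593, 0.986 and 0.823. For the library number edgeR called 3 of the 26, the complement gene C3 and the acute-phase genes SAA1 and SAA2, against 0.63% of all genes. C3 stood at 41.6, 556 and 91.9 CPM under shJUP and 29.2, 587 and 75 CPM under shNC (number-test adjusted p = 0.01), with both number-2 libraries far above the rest. Among the ligands the same test called IL33, at 0.223, 4.27 and 0.372 CPM under shJUP and 0.995, 14.3 and 1.52 CPM under shNC (adjusted p = 0.025). SAA1 and SAA2 are near copies that can share reads. Of 7 chemokine receptors listed, only ACKR3, a scavenging receptor, was tested (0.971 ± 0.89 against 2.05 ± 1.5 CPM, log2 -1.08, SE 0.85, edgeR adjusted p = 0.68). Its log2 difference was -2.08 without shJUP 1 and -0.50 without shNC 3, and its within-number ratios were 3.93, 0.335 and 0.062, so number 1 went the other way.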

How the data were processed

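RNA of 6 SKOV3 libraries, 3 per hairpin, was enriched with oligo(dT) beads and sequenced on DNBSEQ, per the labels' protocols. The deposited values are expected counts (estimated reads per Ensembl gene, unscaled). The submitters' processing notes list STAR 2.7.9a, RSEM 1.3.3, edgeR 3.32.1 and DESeq2 1.26.0 without their roles, and the labels' protocols mention FPKM from Cuffdiff, which were not used here. Genome build, annotation and strand: not given in the sources used here. Of 60695 rows 31 held no gene ID and were left out. SOD2 was named from GENCODE 29, the other members from the current name table.

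Counts were rounded. Tests used edgeR 4.0.16 in R 4.3.3 (filterByExpr, 15867 genes, TMM, quasi-likelihood, two-sided, Benjamini-Hochberg, threshold 0.05). SE is the log2 difference over the square root of F. DESeq2 1.42.0 and limma-voom (limma 3.58.1), other scalings and filters, the library number as a block, and libraries left out were alternatives. Deviations of same-numbered libraries correlated at 0.14, 0.51 and 0.20. However, shJUP 3 correlated at 0.39 with shNC 1 and shJUP 1 at 0.15 with shNC 3, so only shJUP 2 correlated best with its own number. Between replicates the chi-square of counts per gene was 10 to 61.3, above sampling noise. The steps were tested on simulated counts, with 200 changed genes among 15867 and the spread taken from the fit with number and hairpin. For the hairpin, edgeR recovered 83% of 2-fold changes and DESeq2 89%, but they also called 24 and 40 unchanged genes. For the number, edgeR recovered 75% and DESeq2 77%, and called 41 and 39 unchanged genes. Calls of each fit can thus include unchanged genes. Exon lengths per gene were the union of all its annotated exons in GENCODE 29, not the length of an expressed transcript. Ranks per kilobase depend on that choice. Genes named in full were the 12 members with the smallest p for the hairpin, the 6 for the number, and up to 4 per pathway list. Members and lists were chosen with earlier results of these data known. p-values measure the spread between these libraries only, and counting limits cover counting error only.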

Additional observations from a re-analysis of the deposited data

How the results depend on the processing

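The count of all genes called for the hairpin was 0 with edgeR, limma-voom, other scalings and each library left out (range 0 to 0), and 5 with no filter, 1 with the replicate block, 49 without both number-2 libraries, 204 with DESeq2, 696 with DESeq2 and the replicate block, and 678 with DESeq2 lacking the number-2 libraries. The members called were 0 in the edgeR and limma-voom settings, and 2 with DESeq2, 9 with DESeq2 and the replicate block, and 10 with DESeq2 lacking the number-2 libraries. Their median log2 difference ranged from -0.02 (without shJUP 2) to 0.39 (without shJUP 1) with 1 library left out, and lay between 0.04 and 0.32 elsewhere. JUP passed in a pair of DESeq2 settings, at -1.30 for the replicate block (adjusted p = 0.043) and -1.66 for the set lacking number 2 (adjusted p = 2.4e-10), and ranged from -1.80 to -0.75 with 1 library left out. For the library number, 470 genes and 10 members were called with no filter, 1050 and 12 with DESeq2, and 3 to 217 genes and 0 to 7 members with 1 library left out. The cause of these differences was not tested.

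Counting each named gene under each alternative once, 703 log2 differences kept their direction and their side of the threshold, 23 passed the threshold only there and 46 turned direction. Turned values were NFKB1 -0.01 with upper-quartile scaling; TNF -0.11, IL1B -0.35 with limma-voom; TNF -0.09, IL1B -0.32 with the replicate block; TNF -0.10, IL1B -0.35 with DESeq2 and the replicate block. Without both number-2 libraries edgeR gave TNF -0.44, IL1B -0.96, NFKBIE -0.11, CCL20 -0.96, IL1A -0.14 and SOD2 -0.08, and DESeq2 gave -0.45, -0.96, -0.11, -0.96, -0.14 and -0.08. With 1 library left out the ranges of those that turned were NFKB1 -0.02 to 0.04, RELA -0.08 to 0.03, REL -0.01 to 0.10, NFKBIA -0.70 to 0.16, NFKBIE -0.24 to 0.23, TNIP1 -0.43 to 0.02, BIRC3 -0.38 to 0.97, CCL2 -1.58 to 0.27, CCL20 -0.93 to 1.78, CXCL2 0 to 1.18, TNF -0.68 to 0.37, IL1A -0.18 to 0.47, IL1B -1.40 to 0.58, CSF1 -1.15 to 0.33, PTGS2 -2.54 to 0.92, SOD2 -0.81 to 0.82 and TNFAIP2 -1.23 to 0.05. Leaving out only 1 number-2 library keeps the other one in the other group, so differences by library number enter these ranges. Members under about 1 CPM are limited by depth.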
